A study of Rattus norvegicus with 47 samples.

Results

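The genes described here are Aqp4, Slc1a2, Slc1a3 and Glul, 4 astrocyte genes of water transport and glutamate clearance. They were followed through every probe set that the array's annotation assigned to one of them, which gave 13 of the 8799 probe sets on the array for 4 of the 4737 genes that a probe set names alone. Aqp4 had 1 probe set, and Slc1a2, Slc1a3 and Glul had 4 each. Of the 13, 12 were bright enough to be tested; the exception, rc_AI044517_at of Slc1a2, lay under the detection floor on all 47 arrays, with signals of 11.1 to 151.

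Aqp4 is a water channel concentrated in astrocyte endfeet around blood vessels, where water enters and leaves the brain. Slc1a2 (GLT-1) and Slc1a3 (GLAST) are the transporters by which astrocytes take up synaptic glutamate. Glul, glutamine synthetase, turns that glutamate into glutamine, which neurons take back as transmitter precursor. In brain injury this set is followed because oedema and excess extracellular glutamate are early features of tissue damage.

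Total RNA came from bulk rat brain tissue at stated hours after an injury, and each array measured the tissue ipsilateral or contralateral to it. There were 7 arrays of ipsilateral and 9 of contralateral hippocampus at 4 h, 8 of ipsilateral and 8 of contralateral cortex at 24 h, and 7 of ipsilateral and 8 of contralateral cortex at 4 h. All tissue came from injured animals as far as the labels tell, the treatment entry is the same on every array, and no source used here states the strain, the age or the type of injury. Nothing says that the arrays of a group are separate animals, so a p-value reflects only how much these arrays vary, which may be technical. Contralateral tissue stands as the comparison within the brain and is not a sham control. The label "HC" was read as hippocampus. Array 23 carries a contralateral hippocampus label while its number falls in the ipsilateral run; the label was followed. Sample numbers run in 1 block for cortex at 4 h, 1 for hippocampus and 1 for cortex at 24 h, so a time or region difference cannot be told apart from anything those blocks share, while each side comparison lies within a block. Within a block the sides are again separate runs of numbers (1 to 8 and 9 to 16, 17 to 24 and 25 to 32 apart from array 23, 33 to 40 and 41 to 48), so side cannot be told apart from anything such a run shares either. In bulk tissue, fewer cells of a type and less RNA per cell cannot be told apart.

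The deposited signals were already scaled, with a 2%-trimmed mean of 2503 to 2504 on every array, and arrays of 1 group correlated at r = 0.944 to 0.985 across tested probe sets. All 15 tested astrocyte identity markers, all 14 neuronal and all 8 oligodendrocyte markers lay above the floor on all 47 arrays. This fits brain tissue but is the same for every group, so it does not test the region or side labels. The Gapdh 3′ to 5′ ratio, a sign of RNA integrity, differed between the blocks on the log2 scale. It ran from 0.0671 to 0.252 in ipsilateral and from 0.0297 to 0.222 in contralateral hippocampus, from 0.0563 to 0.19 in ipsilateral and 0.0514 to 0.196 in contralateral cortex at 24 h, and from 0.116 to 0.412 in ipsilateral and 0.183 to 0.428 in contralateral cortex at 4 h. The Gapdh ratio thus moved with the time and region comparisons, and its part in them was examined only through its use as a covariate. The actin 3′ to 5′ ratio ran from 0.212 to 0.52 in ipsilateral and 0.0857 to 0.441 in contralateral hippocampus. In ipsilateral and contralateral cortex it ran from 0.452 to 0.616 and 0.419 to 0.659 at 24 h. At 4 h these ranges were 0.476 to 0.921 and 0.414 to 0.778. Actin also differed between the regions, was not used as a covariate, and its part was not tested.

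Aqp4, Slc1a3 and Slc1a2 each have a probe set that was higher at 24 h and in hippocampus on at least 1 side. For Slc1a2 this was the contralateral side only. The sequence before the upstream annotated start of each gene is therefore shown. Each window is RefSeq sequence on GRCr8, from 250 bases before to 50 bases after the start, written 5′ to 3′ on the gene's own strand. Capitals mark a CCAAT box (CCAAT, on either strand) in Aqp4 and an NF-I motif (TTGGC, on either strand) in Slc1a3; the Slc1a2 window holds no match to a motif searched. The Aqp4 window lies at chr18:6798793-6799092 on the minus strand, and the Slc1a3 window at chr2:59557759-59558058 on the minus strand. The Slc1a2 window lies at chr3:109459859-109460158 on the plus strand.
Aqp4: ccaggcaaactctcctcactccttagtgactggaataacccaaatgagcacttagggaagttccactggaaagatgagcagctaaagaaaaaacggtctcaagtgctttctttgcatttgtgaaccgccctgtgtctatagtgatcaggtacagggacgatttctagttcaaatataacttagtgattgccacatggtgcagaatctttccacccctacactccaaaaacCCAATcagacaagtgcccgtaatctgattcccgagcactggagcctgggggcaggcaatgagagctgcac
Slc1a3: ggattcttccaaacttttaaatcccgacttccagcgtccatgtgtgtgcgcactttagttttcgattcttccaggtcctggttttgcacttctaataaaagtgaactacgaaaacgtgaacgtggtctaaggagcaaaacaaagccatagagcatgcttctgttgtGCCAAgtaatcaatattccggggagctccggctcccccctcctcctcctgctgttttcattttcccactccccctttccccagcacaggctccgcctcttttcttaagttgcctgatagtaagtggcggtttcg
Slc1a2: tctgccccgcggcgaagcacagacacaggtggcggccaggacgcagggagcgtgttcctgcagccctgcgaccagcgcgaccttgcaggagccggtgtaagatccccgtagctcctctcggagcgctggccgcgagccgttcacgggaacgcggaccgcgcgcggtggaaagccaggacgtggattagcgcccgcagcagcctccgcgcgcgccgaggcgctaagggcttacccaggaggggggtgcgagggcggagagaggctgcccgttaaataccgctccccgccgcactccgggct
Among 33469 windows of this length, 37.5% hold CCAAT and 45.8% hold TTGGC, so neither match is unusual. Searches on both strands for AP-1 (TGANTCA), STAT (TTCNNNGAA), the glucocorticoid receptor motif (AGAACA) and the TATA box (TATAAA) gave no match in these 3 windows; 7.33%, 8.87%, 20.7% and 14.2% of all windows hold them. A downstream start of Slc1a2 has a window, not printed, with 1 match to AGAACA and 1 to TTGGC, and that of Aqp4 has no match. A CCAAT preceded by G also holds the reverse of TTGGC, so these motifs can overlap. A match is a description of the letters and no site of binding.

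Aqp4 was the member with the largest differences, which were those of time and region. Each of them sets cortex at 4 h, the lower group, against another block, so they share that block. No side difference passed the threshold. Its signal in ipsilateral cortex at 24 h ran from 2069 to 5683 with a median of 5316, against 1103 to 2385 with a median of 1781 in ipsilateral cortex at 4 h. Of the 8 arrays at 24 h, 7 lay above every array at 4 h, and the groups overlapped only through array 34, the lowest of the 24 h arrays. The log2 difference was 1.50 ± 0.195 (SE), a 2.82-fold higher level (limma, Benjamini-Hochberg adjusted p = 3.24e-07).

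On the contralateral side the same gene was also higher at 24 h. Aqp4 signal ran from 2361 to 5031 with a median of 4232 in contralateral cortex at 24 h, against 925 to 2970 with a median of 1705 in contralateral cortex at 4 h. Again 7 of the 8 later arrays lay above every earlier one. The difference was 1.20 ± 0.188 on the log2 scale, or 2.29-fold (adjusted p = 5.55e-06, limma).

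**Figure D1:**
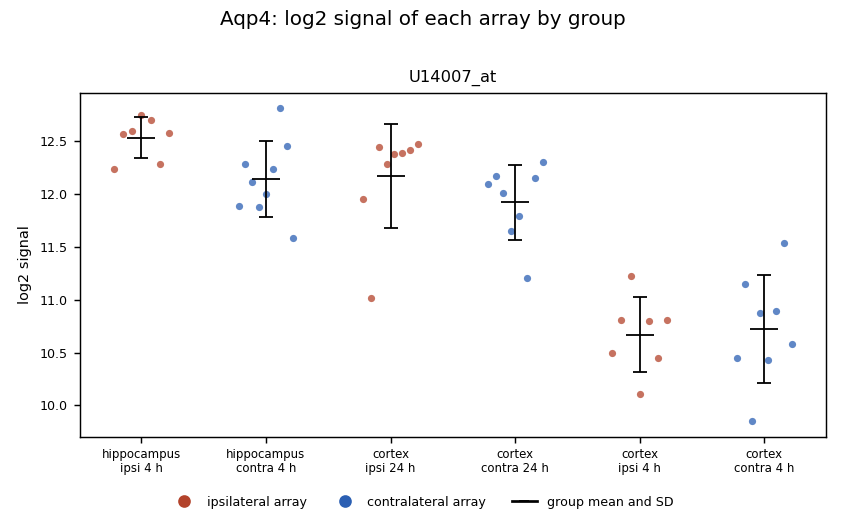
Aqp4 (U14007_at) log2 signal of every array, by group, with the group mean and SD; red points are ipsilateral and blue points contralateral. The means of both 4 h cortex groups, 10.67 ipsilaterally and 10.72 contralaterally, lie below those of the other 4 groups, and array 34 is the low point at 11.01 in ipsilateral cortex at 24 h.

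Hippocampus had more Aqp4 signal than cortex at 4 h. In ipsilateral hippocampus the signal ran from 4823 to 6857 with a median of 6111, and none of these 7 arrays overlapped the 7 arrays of ipsilateral cortex at 4 h. The difference was 1.86 ± 0.201, or 3.62-fold (adjusted p = 3.47e-10, limma). In contralateral hippocampus it ran from 3070 to 7161 with a median of 4420, and all 9 arrays lay above all 8 arrays of contralateral cortex at 4 h. That difference was 1.42 ± 0.183, or 2.67-fold (adjusted p = 2.39e-08, limma). With the Gapdh 3′ to 5′ ratio as a covariate, the time differences of Aqp4 were 1.32 and 0.98 and the region differences 1.74 and 1.22, ipsilateral and contralateral in each pair, all still past the threshold.

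Between the sides Aqp4 did not pass the test in any group. The ipsilateral minus contralateral difference was 0.39 ± 0.19 in hippocampus (adjusted p = 0.149, limma), 0.25 ± 0.188 in cortex at 24 h (adjusted p = 0.841) and -0.05 ± 0.195 in cortex at 4 h (adjusted p = 0.985). Their 95% intervals ran from 0.0085 to 0.77, from -0.13 to 0.63 and from -0.44 to 0.34. All 7 ipsilateral hippocampal arrays lay above the contralateral median, yet the groups overlapped. In cortex at 24 h, 5 of the 8 ipsilateral arrays lay above every contralateral array and array 34 lay below all of them; without array 34 the difference was 0.41 ± 0.173 (adjusted p = 0.581). The side difference itself changed by 0.30 ± 0.271 between 24 h and 4 h (adjusted p = 0.968).

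Ordered by mean log2 signal, Aqp4 stood at 12.53 in ipsilateral hippocampus, 12.16 in ipsilateral cortex at 24 h, 12.14 in contralateral hippocampus, 11.92 in contralateral cortex at 24 h, 10.72 in contralateral cortex at 4 h and 10.67 in ipsilateral cortex at 4 h. Only the step between contralateral cortex at 24 h and contralateral cortex at 4 h passed the test among neighbours in this order. That step is the contralateral time difference given above, and the same means set the order, so it is no further evidence. The other 4 steps had adjusted p-values of 0.251 to 0.985 (limma).

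Slc1a3, the GLAST transporter, was read by 4 probe sets that did not all move alike. S75687_s_at had a signal of 6203 to 10933 with a median of 10055 in ipsilateral cortex at 24 h, against 5297 to 8798 with a median of 6767 in ipsilateral cortex at 4 h. It was higher at 24 h by 0.47 ± 0.103 (adjusted p = 7.83e-04, limma), with 7 of 8 later arrays above every earlier one. On the contralateral side its difference was 0.31 ± 0.0998 (adjusted p = 0.018), and with the Gapdh ratio as a covariate it was 0.19 (adjusted p = 0.39). In hippocampus over cortex it was higher by 0.53 ± 0.107 ipsilaterally (adjusted p = 1.28e-04) and 0.33 ± 0.097 contralaterally (adjusted p = 0.00619); the contralateral value fell short of the threshold with the Gapdh ratio as a covariate, at 0.21 (adjusted p = 0.185).

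X63744_g_at, designed from another Slc1a3 sequence, was higher at 24 h as well. Its signal ran from 3683 to 5187 with a median of 4467 in ipsilateral cortex at 24 h, against 2141 to 3772 with a median of 2504 in ipsilateral cortex at 4 h. The difference was 0.65 ± 0.157 on the ipsilateral side (adjusted p = 0.00203, limma) and 0.74 ± 0.152 on the contralateral side (adjusted p = 2.91e-04). Ipsilateral hippocampus exceeded ipsilateral cortex by 0.65 ± 0.162 (adjusted p = 0.0019), while the contralateral region difference of 0.35 ± 0.147 missed the threshold (adjusted p = 0.0606). With each array's 10th percentile added as a covariate these were 0.32 (adjusted p = 0.0407) and 0.51, both past the threshold. Between the hippocampal sides it differed by 0.38 ± 0.153 (adjusted p = 0.0765), with the groups overlapping, and by -0.098 under the same covariate.

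The remaining Slc1a3 probe sets passed no test. X63744_at, which shares its source sequence with X63744_g_at, differed between 24 h and 4 h by 0.42 ± 0.208 ipsilaterally (adjusted p = 0.152) and 0.50 ± 0.201 contralaterally (adjusted p = 0.0709), the same sign as its partner, at signals of 201 to 768. S59158_at, at signals of 13286 to 30175, had the other sign, at -0.15 ± 0.11 ipsilaterally (adjusted p = 0.362) and -0.17 ± 0.106 contralaterally (adjusted p = 0.261). A statement on Slc1a3 therefore depends on the probe set.

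**Figure D2:**
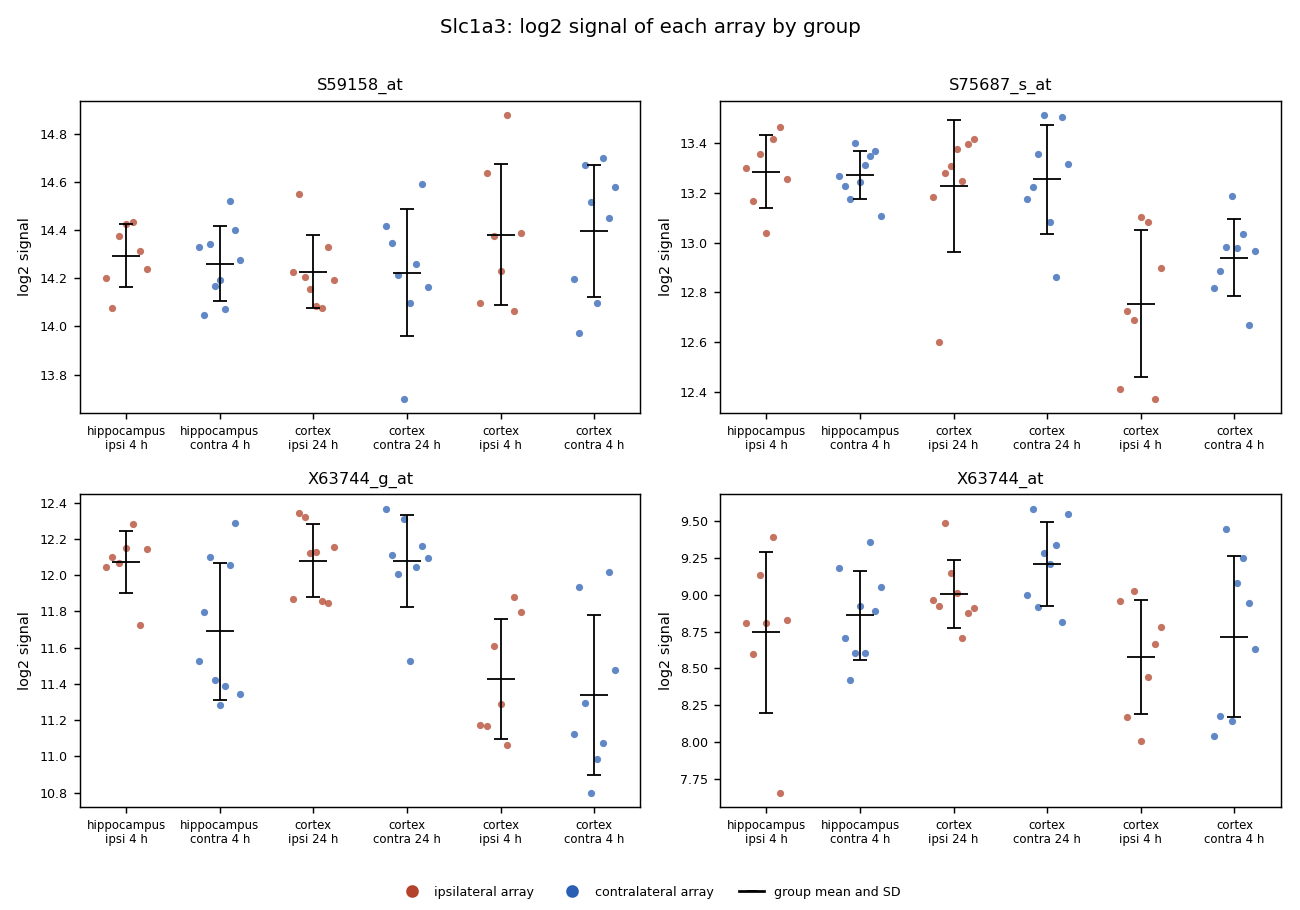
Log2 signal of every array for the 4 Slc1a3 probe sets, by group, with mean and SD. S75687_s_at and X63744_g_at are lower in both 4 h cortex groups than in the 24 h groups, X63744_at overlaps more, and S59158_at shows no such step.

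Slc1a2, the GLT-1 transporter, passed no test by its probe set U15098_at. U15098_at ran from 1455 to 3306 over all 47 arrays, and its differences in the 7 comparisons between groups lay between -0.12 and 0.12, none past the threshold. In hippocampus its side difference was -0.05 ± 0.126, with a 95% interval of -0.30 to 0.21.

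Another Slc1a2 probe set, rc_AI638980_at, differed. In ipsilateral hippocampus its signal ran from 768 to 1276 with a median of 878, against 988 to 1716 with a median of 1362 in contralateral hippocampus. Of the 7 ipsilateral arrays, 5 lay below every contralateral array. The difference was -0.53 ± 0.178, or 1.44-fold lower (adjusted p = 0.0355, limma). Leaving out 1 array ended this call for 9 of the 16 arrays (18, 19, 20, 21 and 24 ipsilaterally and 23, 28, 29 and 32 contralaterally), where the difference ran from -0.61 to -0.48 over all 16. It was also lost with quantile normalization, at -0.44 (adjusted p = 0.055), and with each array's 10th percentile of signal as a covariate, at -0.11 (adjusted p = 0.878). That percentile averaged 44 ± 6.85 (SD, n = 7) in ipsilateral and 64.8 ± 16.1 (SD, n = 9) in contralateral hippocampus, so array brightness at the low end moved with this comparison.

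The cortical side differences of rc_AI638980_at were -0.34 ± 0.176 at 24 h (adjusted p = 0.683, limma) and 0.31 ± 0.182 at 4 h (adjusted p = 0.763). Set against the cortex at 4 h, its hippocampal side difference was lower by -0.84 ± 0.255 (adjusted p = 0.0481, limma), a call that was lost for 19 of 31 arrays left out in turn, with values from -0.99 to -0.73. It was -0.41 with the 10th percentile as a covariate (adjusted p = 0.561), and the call was also lost without the filter on dim probe sets (adjusted p = 0.0534), with the Gapdh ratio as a covariate (adjusted p = 0.0504) and with only the compared groups (adjusted p = 0.106). The arrays whose removal ended it were hippocampal arrays 18, 19, 20, 21, 23, 24, 26, 28, 29 and 32 and cortical arrays 1, 3, 4, 5, 6, 9, 10, 15 and 16. The probe set was also higher in contralateral hippocampus than in contralateral cortex, by 0.88 ± 0.171 (adjusted p = 7.22e-05), and in contralateral cortex at 24 h than at 4 h, by 0.53 ± 0.176 (adjusted p = 0.0246). Ipsilaterally neither passed, at 0.041 ± 0.188 for region (adjusted p = 0.909, limma) and -0.11 ± 0.182 for time (adjusted p = 0.723). The time call was lost without array 47, 10 or 16, and with quantile normalization (0.42), the Gapdh ratio as a covariate (0.56) or only the compared groups in the fit (0.53, adjusted p = 0.0535).

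The third, rc_AI044517_g_at, passed no test. Its log2 SD was 0.973 in ipsilateral and 0.262 in contralateral hippocampus, 0.682 in ipsilateral and 0.383 in contralateral cortex at 24 h, and 0.914 in ipsilateral and 0.238 in contralateral cortex at 4 h. In ipsilateral hippocampus the signal ran from 262 to 1732 with a median of 1014, against 1049 to 1783 with a median of 1304 contralaterally. The exact permutation test of the spread gave p = 0.0527 in hippocampus, 0.935 in cortex at 24 h and 0.0569 in cortex at 4 h, or 0.666, 0.996 and 0.666 after adjustment over 36 such tests. Over those 36 the ipsilateral group had the wider spread in 18. Its hippocampal side difference was -0.68 ± 0.299 (adjusted p = 0.11, limma), and 4 of 7 ipsilateral arrays lay below every contralateral one.

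**Figure D3:**
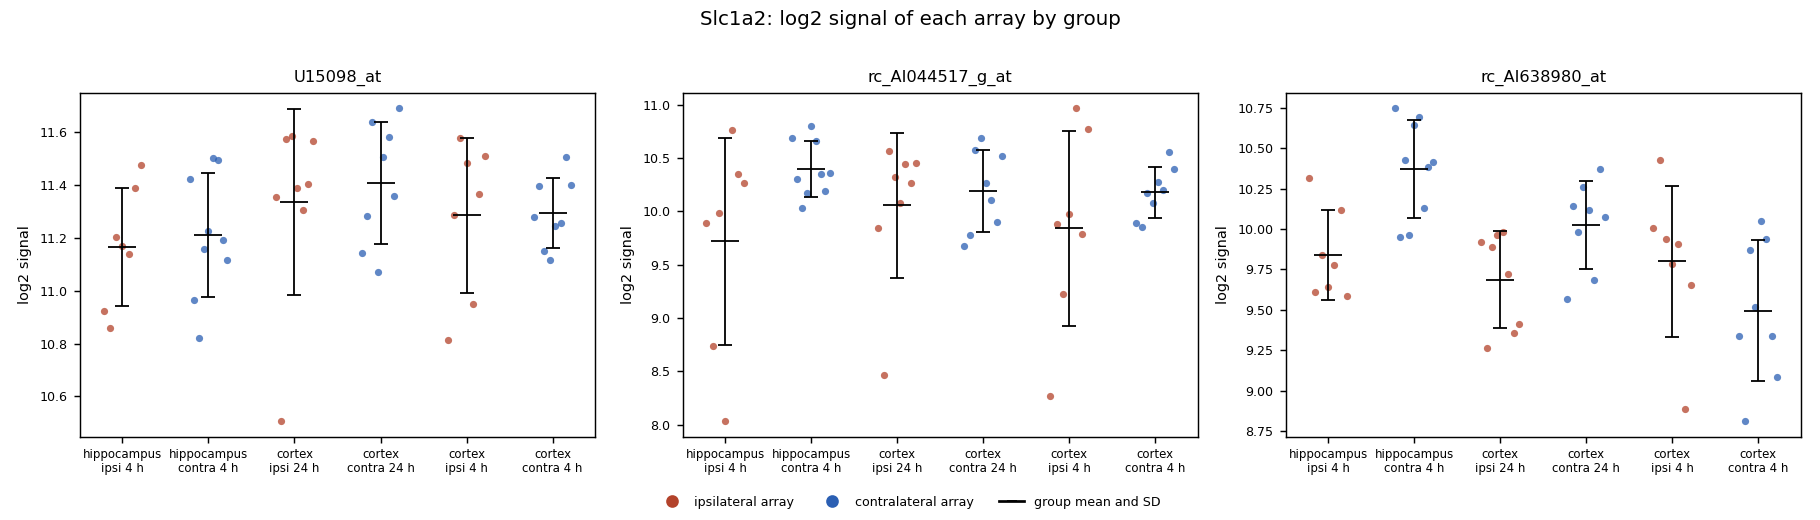
Log2 signal of every array for the 3 tested Slc1a2 probe sets, by group, with mean and SD. U15098_at overlaps in all groups, rc_AI044517_g_at has low single arrays in the ipsilateral groups, and rc_AI638980_at is lowest in contralateral cortex at 4 h.

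Glul, glutamine synthetase, was read by 4 probe sets that differed in sign. rc_AI232783_s_at had a signal of 37741 to 55665 with a median of 43017 in contralateral cortex at 24 h, against 44728 to 60103 with a median of 55496 in contralateral cortex at 4 h. It was lower at 24 h by 0.28 on the log2 scale (-0.28 ± 0.0812, adjusted p = 0.0097, limma), with 5 of 8 later arrays below every earlier one. Ipsilaterally the time difference was -0.22 ± 0.0841 (adjusted p = 0.0604). It was lower in ipsilateral hippocampus than in ipsilateral cortex, at -0.25 ± 0.0868 (adjusted p = 0.0241). Under quantile normalization these 2 called values shrank to -0.09 for time (adjusted p = 0.472) and -0.03 for region (adjusted p = 0.858), and neither held. With the Gapdh ratio as a covariate they were -0.24 (adjusted p = 0.147) and -0.23 (adjusted p = 0.0673), and the region call was also lost with the 10th percentile as a covariate (-0.08) or without array 18, 20 or 6.

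M91652complete_seq_at had the other sign. Its signal ran from 18659 to 22642 with a median of 21645 in ipsilateral cortex at 24 h, against 12031 to 23305 with a median of 17602 in ipsilateral cortex at 4 h. The difference of 0.33 ± 0.119 was just past the threshold (adjusted p = 0.047, limma) and was lost for 11 of 15 arrays left out in turn (34 to 40, 1, 3, 5 and 8), with values from 0.24 to 0.40. It was also lost without the filter on dim probe sets (adjusted p = 0.0645), with the 10th percentile as a covariate (0.26) or with only the compared groups in the fit (adjusted p = 0.107). The groups overlapped fully, since the highest array was one at 4 h. M91652complete_seq_g_at, which shares that source sequence, differed by 0.0089 ± 0.0732 (adjusted p = 0.956), and rc_AA852004_s_at by 0.28 ± 0.114 (adjusted p = 0.0776).

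**Figure D4:**
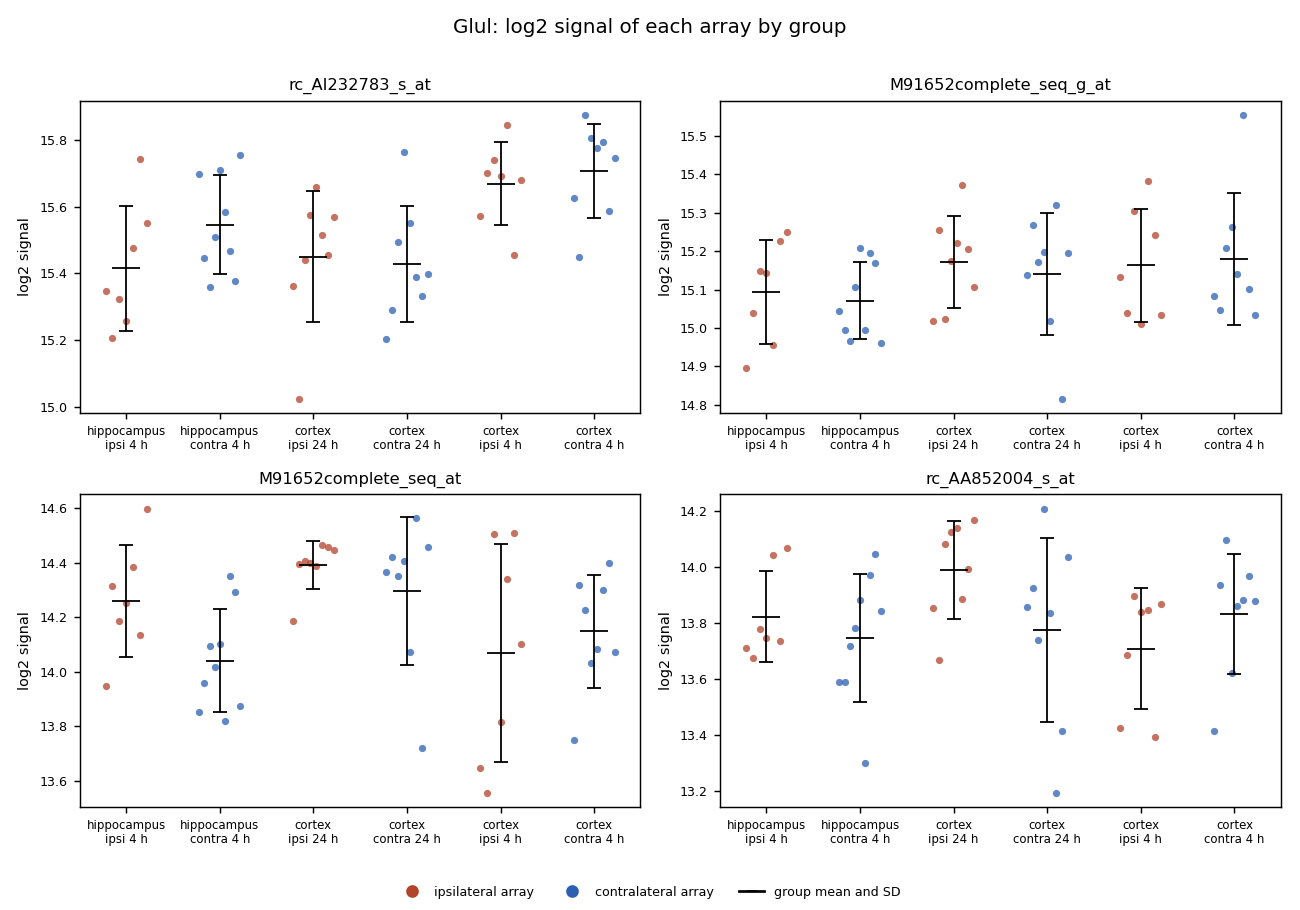
Log2 signal of every array for the 4 Glul probe sets, by group, with mean and SD. rc_AI232783_s_at is highest in the 4 h cortex groups, M91652complete_seq_at is highest in cortex at 24 h, and the group means of each probe set span under 1 on this scale.

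The members counted here are the 12 tested probe sets, not genes. None was called between the sides in cortex at 4 h, where 0% of all 7503 tested probe sets were called higher and 0% lower. At an unadjusted p under 0.05, 0 members and 558 of all probe sets passed there. In cortex at 24 h no member was called either, against 0.0933% of all probe sets higher and 0.0133% lower, and 0 members passed unadjusted against 575 of all. In hippocampus 0 members were called higher and 1 lower, with 5.32% and 10.8% of all probe sets called, so that share of the members is near the background. With the 10th percentile as a covariate, 5 of the 7503 probe sets were called in this comparison, against 1207 without it.

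Over time in ipsilateral cortex 4 of the 12 member probe sets were called higher and 0 lower, against 11.4% and 7.92% of all probe sets. These were the Aqp4 probe set, S75687_s_at and X63744_g_at of Slc1a3, and M91652complete_seq_at of Glul, with none of Slc1a2. In contralateral cortex 4 were higher and 1 lower, against 13.2% and 8.25%. The higher ones were the Aqp4 probe set, S75687_s_at and X63744_g_at of Slc1a3, and rc_AI638980_at of Slc1a2. The lower one was rc_AI232783_s_at of Glul. The hippocampus over cortex comparison called 3 higher and 1 lower ipsilaterally, against 16.7% and 10.8%, and 3 higher and 0 lower contralaterally, against 22.3% and 11.4%. The Aqp4 probe set and S75687_s_at were higher on both sides, X63744_g_at ipsilaterally and rc_AI638980_at contralaterally. The lower one was rc_AI232783_s_at. The 2 time comparisons share no array with each other, but each shares arrays with a region comparison. The median difference of the members was 0.25 over time ipsilaterally and 0.13 contralaterally, against 0.025 and 0.041 for all probe sets, and 0.077 and 0.032 for region, against 0.012 and 0.11.

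For the differences between side effects, the change with time called 0 members, with 0% of all probe sets higher and 0% lower; 2 members and 421 of all probe sets passed unadjusted. The hippocampal minus cortical side difference called 0 members higher and 1 lower, against 1.08% and 3.11%.

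**Figure D5:**
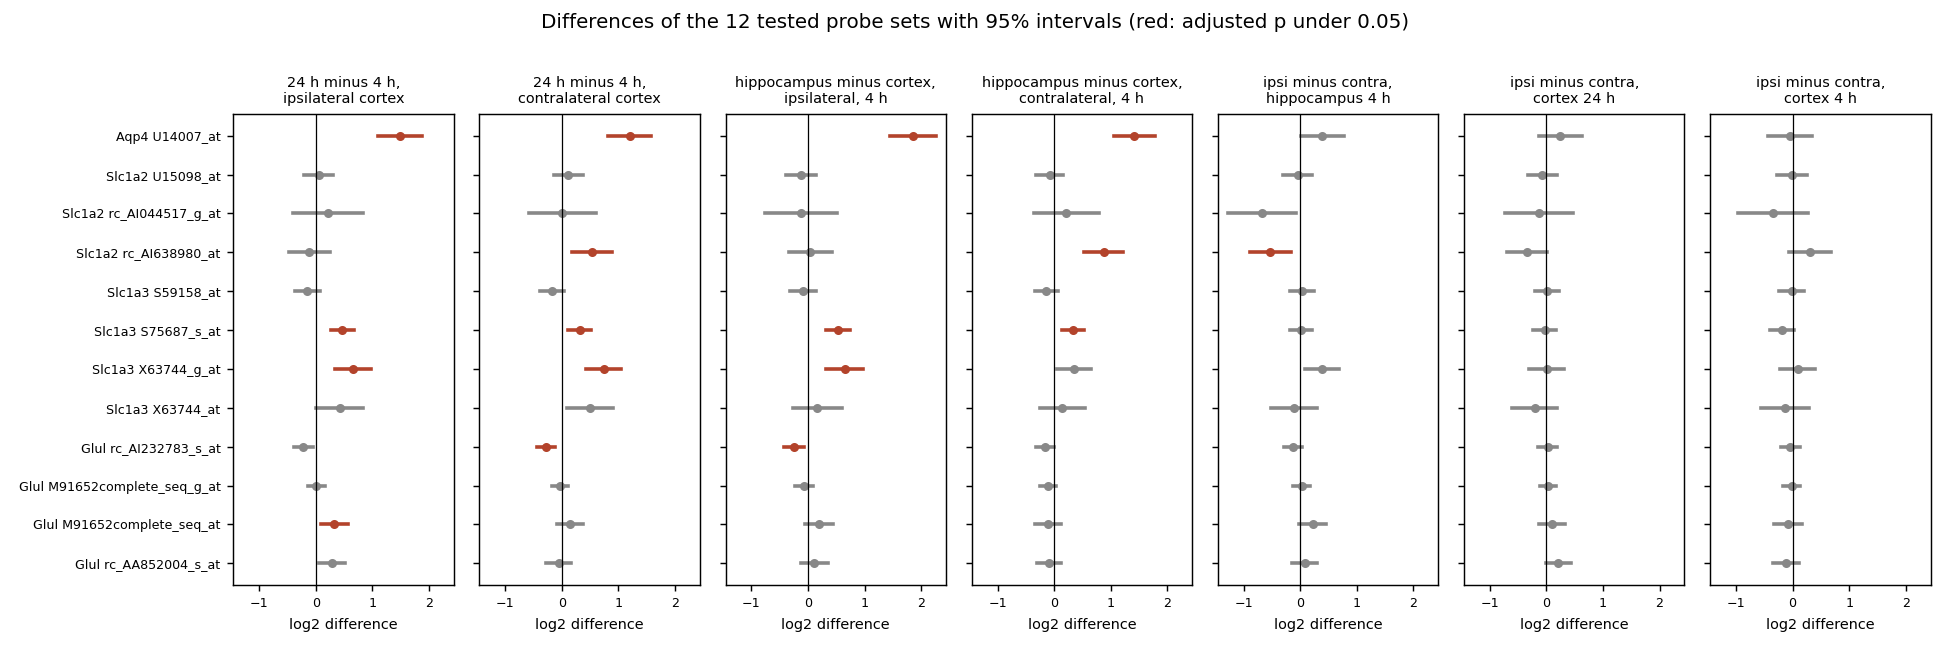
Log2 differences of the 12 tested probe sets with 95% intervals in 7 comparisons, first group minus second; red marks an adjusted p under 0.05. Aqp4 stands at 1.20 to 1.86 in the time and region panels, and in the side panels only rc_AI638980_at in hippocampus, at -0.53, is red.

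Agreement between probe sets of 1 gene was measured across the 47 arrays after subtracting group means. Of 15 pairs, 11 correlated above 0 and 3 passed after adjustment over the 15 pairs. The strongest was the Glul pair M91652complete_seq_g_at and M91652complete_seq_at, which share a source sequence (r = 0.616, permutation p = 5e-05, adjusted 7.5e-04; rho = 0.603, permutation p = 6e-05, adjusted 9e-04; r = 0.572 without arrays 14 and 47). M91652complete_seq_at and rc_AA852004_s_at followed (r = 0.424, permutation p = 0.00771, adjusted 0.0385; rho = 0.536, permutation p = 3.4e-04, adjusted 0.00255; r = 0.413 without arrays 3 and 1). For Slc1a2, U15098_at and rc_AI044517_g_at had r = 0.491 (permutation p = 0.00442, adjusted 0.0331; rho = 0.419, permutation p = 0.008, adjusted 0.04), which was 0.243 without arrays 34 and 1 and so rested on those arrays. No pair of Slc1a3 probe sets passed, with r between -0.215 and 0.191.

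Between the genes, each by its probe set of highest mean signal, none of 6 pairs passed. Aqp4 and Slc1a2 came nearest (r = 0.43, permutation p = 0.00928, adjusted 0.0557; rho = 0.321, permutation p = 0.0337, adjusted 0.202; r = 0.476 without arrays 11 and 5).

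As a description over the same 47 group-centred arrays, the gene patterns most like Aqp4 among 6110 probe sets were Tra2b (r = 0.709), Gja1 (r = 0.691) and Crk (r = 0.668). Gja1 encodes connexin 43, the main astrocyte gap junction protein. Those most like Slc1a2 were Map1b (0.667), Fn1 (0.597) and Itpr1 (0.593). For Slc1a3 they were Rps24 (0.602), Gnb1 (0.585) and Brcc3 (0.539), and for Glul Syngr1 (0.719), Adipor2 (0.718) and A2m (0.714). These arrays share scaling and array brightness.

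Genes that work beside Aqp4 in water and potassium handling were read from a list of 32, of which 20 were tested. Over time 5 rose and 2 fell in ipsilateral cortex, and 6 rose and 2 fell in contralateral cortex. Of all probe sets, 11.4% were called higher and 7.92% lower ipsilaterally, and 13.2% and 8.25% contralaterally. The list's median difference was 0.22 and 0.084, against 0.025 and 0.041 for all probe sets. Kcnj10 encodes Kir4.1, the potassium channel that sits with Aqp4 in endfeet. Its probe set U27558_at had a signal of 677 to 3422 with a median of 2575 in ipsilateral cortex at 24 h, against 467 to 1357 with a median of 1003 in ipsilateral cortex at 4 h. It was higher at 24 h by 1.21 ± 0.284 ipsilaterally (adjusted p = 0.0016, limma) and 1.58 ± 0.274 contralaterally (adjusted p = 2.94e-05). Another Kcnj10 probe set, X83585cds_s_at, was higher by 0.72 ± 0.213 (adjusted p = 0.0119) and 0.91 ± 0.206 (adjusted p = 9.1e-04).

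Dmd, whose brain product Dp71 anchors Aqp4 in the endfoot membrane, was higher at 24 h by 0.84 ± 0.23 ipsilaterally (adjusted p = 0.00696, limma) and 0.94 ± 0.223 contralaterally (adjusted p = 0.00145). Car2, a carbonic anhydrase, was higher by 0.38 ipsilaterally, and Gjb2, connexin 26, and Slc12a2, the NKCC1 cotransporter, by 0.84 and 0.39 contralaterally. Atp1b1, a sodium pump subunit, fell by 0.43 ipsilaterally.

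For region, 6 of the 20 were higher and 1 lower in ipsilateral hippocampus, and 8 higher and 3 lower in contralateral hippocampus, against 16.7% and 10.8%, and 22.3% and 11.4%, of all probe sets. Gja1 was higher by 0.89 ± 0.131 ipsilaterally and 0.79 ± 0.119 contralaterally (adjusted p = 5.79e-07 and 8.01e-07, limma). Kcnj10 U27558_at was higher by 0.88 and 1.28, and Dmd by 0.65 and 0.66. The other Kcnj10 probe set, X83585cds_s_at, differed by 0.31 ± 0.22 ipsilaterally (adjusted p = 0.323, limma), short of the threshold, and by 0.75 ± 0.2 contralaterally (adjusted p = 0.00285). The gene that was lower ipsilaterally was Atp1b1, at -0.46 ± 0.0559 (adjusted p = 7e-09, limma). The neuronal chloride exporter Slc12a5 was lower contralaterally, at -0.58. Between the hippocampal sides 0 rose and 2 fell, the aquaporins Aqp7 at -0.99 and Aqp5 at -0.69, where 5.32% of all probe sets rose and 10.8% fell. Both were dim, with mean log2 signals of 8.66 and 8.88, above the floor on 42 and 45 of the 47 arrays. The mean 10th percentile differed between these sides, at 44 ipsilaterally and 64.8 contralaterally. With that percentile in the model, 5 of the 7503 probe sets were called here, against 1207 in the main fit. Its part in these 2 falls was not tested. Hippocampal side calls of the lists below come from this same comparison.

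The glutamate cycle list held 28 genes, of which 16 were tested, and moved in both directions. Over time 3 rose and 3 fell on each side, against the same shares of all probe sets as above (11.4% and 7.92% ipsilaterally, 13.2% and 8.25% contralaterally). In ipsilateral cortex Aldh5a1 (0.66), Abat (0.54) and Gad2 (0.50), enzymes of GABA metabolism, were higher and the amino acid transporter Slc7a5 was lower (-0.38). On the contralateral side Abat (0.80), Gad2 (0.78) and the GABA transporter Slc6a11 (0.47) were higher and the neuronal glutamate transporter Slc1a1 was lower (-0.26). For region 4 were higher and 3 lower ipsilaterally, and 6 higher and 2 lower contralaterally (16.7% and 10.8%, and 22.3% and 11.4%, of all probe sets), among the lower ones the glutaminase Gls2 at -0.81 and -0.68. In hippocampus between the sides (5.32% of all higher, 10.8% lower) 1 rose and 1 fell, pyruvate carboxylase Pc at 0.31 and Slc6a11 at -0.48.

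Of 15 tested astrocyte identity markers, 1 rose and 4 fell over time in ipsilateral cortex, where 11.4% of all probe sets rose and 7.92% fell. In contralateral cortex 2 rose and 4 fell, against 13.2% and 8.25%. Fabp7, a fatty acid binding protein, was higher at 24 h by 0.99 ipsilaterally, whereas Aldoc (-0.42), Apoe (-0.35) and Sparc (-0.28) were lower there. Contralaterally Prdx6 (0.31) was higher and Apoe (-0.31), Aldoc (-0.29) and Sparc (-0.29) were lower. For region 4 were higher and 2 lower on each side, against 16.7% and 10.8% of all probe sets ipsilaterally and 22.3% and 11.4% contralaterally. Fabp7 (1.09 ipsilaterally, 0.48 contralaterally), Atp1b2 (0.38 ipsilaterally) and Slc4a4 (0.36 contralaterally) were higher, and Aldoc (-0.35 ipsilaterally, -0.21 contralaterally) and Sparc (-0.32 contralaterally) were lower.

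Markers of other cells moved in some of the same comparisons. In ipsilateral cortex over time (11.4% of all probe sets higher, 7.92% lower), 2 of 14 neuronal genes rose and 2 fell, 0 of 8 oligodendrocyte genes rose and 1 fell, 2 of 13 microglial genes rose and 0 fell, and 1 of 8 endothelial genes rose. In contralateral cortex over time (13.2% and 8.25%), 2 neuronal genes rose and 2 fell, 0 oligodendrocyte genes rose and 2 fell, and 0 microglial genes rose and 1 fell. Of 4 blood genes 1 rose there. In ipsilateral hippocampus over ipsilateral cortex (16.7% and 10.8%), 2 neuronal genes rose and 5 fell, and 5 of 8 oligodendrocyte genes rose and 1 fell. In that comparison 1 microglial and 1 endothelial gene also rose, and 1 blood gene fell. In contralateral hippocampus over contralateral cortex (22.3% and 11.4%), 0 neuronal genes rose and 4 fell, and 1 oligodendrocyte gene rose and 0 fell. Here 1 microglial gene and 1 of 7 choroid plexus genes rose, 1 endothelial gene fell, and 2 blood genes rose and 1 fell. Between the hippocampal sides (5.32% and 10.8%), 1 neuronal gene rose, and 1 microglial, 2 endothelial, 1 choroid plexus and 1 blood gene fell. Between the cortical sides at 24 h (0.0933% and 0.0133%), 1 microglial gene was called higher ipsilaterally. Of the 13 microglial genes 12 were higher there, with a median of 0.36 against -0.020 for all probe sets. Only 6 of the 13 lay above the floor on all 47 arrays. The other lists of this paragraph had no call there, and none had a call between the cortical sides at 4 h.

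Of 15 reactive astrocyte genes, 7 were higher and 0 lower in contralateral hippocampus than in contralateral cortex, where 22.3% of all probe sets were higher and 11.4% lower. The list's median difference there was 0.59, against 0.11 for all probe sets, with Tnc at 1.08, Cd44 at 1.03, Hspb1 at 0.86 and Fgf2 at 0.83. Tnc and Cd44 lay above the floor on 44 and 39 arrays, Hspb1 and Fgf2 on all 47. The mean 10th percentile was 64.8 in contralateral hippocampus and 56.9 in contralateral cortex at 4 h, and its part in these calls was not tested. In the same comparison ipsilaterally 0 were called higher and 0 lower, where 16.7% of all probe sets were higher and 10.8% lower. The list's median was -0.12 there, against 0.012 for all probe sets. In ipsilateral hippocampus 0 rose and 3 fell relative to contralateral hippocampus (5.32% and 10.8% of all), Tnc at -1.34, Hspb1 at -0.95 and Nes at -0.60. Between the cortical sides none was called, at 24 h (0.0933% of all higher, 0.0133% lower) or at 4 h (0% and 0%). The list's median ipsilateral minus contralateral difference was 0.59 at 24 h and 0.27 at 4 h, against -0.020 and -0.0024 for all probe sets. Of the 15 genes, 10 and 12 were higher ipsilaterally. Over time 1 rose on each side, Stat3, at 1.18 ipsilaterally and 0.81 contralaterally (11.4% and 13.2% of all higher). The part of these genes and of the other cells in the differences of the members was not tested.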

How the data were processed

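RNA from 47 rat cortex and hippocampus samples was measured on oligonucleotide arrays, extracted with Trizol per the labels. Each deposited file gives, per probe set, a linear intensity (signal). How the authors summarised and scaled it is not given in the sources used here. Signals were kept as deposited, raised to the 25th percentile of all values (185.8) where lower, and converted to log2. Probe sets above this floor on at least 7 arrays, without 59 control probe sets, were tested, 7503 in all. Symbols came from the platform annotation, which can be old: 7018 probe sets name 1 gene, 308 several and 1473 none.

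One limma model (version 3.58.1, R 4.3.3) held the 6 groups of all arrays. The 9 contrasts were tested two-sided with Benjamini-Hochberg adjustment over all tested probe sets at 0.05. Correlations used 1e+05 permutations on group-centred values. The number of arrays limits the precision. The fit was also run on simulated data with independent noise. The simulation held no shared block, run or array effects, so it does not bear on those.

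Members and gene lists were chosen with earlier results of these data known. All member probe sets are named. From each list and comparison up to 4 called genes with the largest differences were eligible, by their brightest probe set, and the text gives those of the lists nearest to the members; for each member the 3 genes with the highest correlation are named. Kcnj10's second probe set and its signals, the tests of spread, the Gapdh covariate and the fit without array 34 were chosen after values were seen. Alternatives were quantile normalization, log2(signal + 64), no filter, only the compared groups, array weights, the 10th percentile of signal or the Gapdh ratio as a covariate, and leaving out each array.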

Additional observations from a re-analysis of the deposited data

Results flagged for a closer look

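Of 72 groups examined, 9 held an array far from the others, where chance gives about 1 in 20, or 3.6. The 72 are probe sets read on the same arrays and are not separate trials, so 9 against 3.6 is only a description. Array 34 of ipsilateral cortex at 24 h accounts for 5 of the 9, each time as the lowest array on the log2 scale. It stood at 11.01 for Aqp4, against 11.95 to 12.47 on the other arrays, at 10.51 for Slc1a2 U15098_at, at 8.466 for Slc1a2 rc_AI044517_g_at, at 12.6 for Slc1a3 S75687_s_at and at 15.02 for Glul rc_AI232783_s_at. Without it the Aqp4 time difference in ipsilateral cortex was 1.66, against 1.50 with it. Array 34 also had the lowest median signal of its group (665, others 753.8 to 794.5) and the lowest 10th percentile (36.53). Its log2 3′ to 5′ ratios of Gapdh (0.19) and actin (0.616) were the highest of the group. For Slc1a3 S59158_at and X63744_g_at it was the highest array of the group, so not every member was low on it.

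The other arrays that stood apart were array 22 of ipsilateral hippocampus (11.73) and array 45 of contralateral cortex at 24 h (11.53), both low for Slc1a3 X63744_g_at, array 14 of contralateral cortex at 4 h, high for Glul M91652complete_seq_g_at (15.56), and array 33 of ipsilateral cortex at 24 h, low for Glul M91652complete_seq_at (14.19).

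The side difference of Slc1a2 rc_AI638980_at differed between hippocampus and cortex at 4 h by -0.8357 (adjusted p = 0.0481, limma), with both values given above. It was -0.41 (adjusted p = 0.561) with the 10th percentile as a covariate, and the call was also lost without the filter on dim probe sets (adjusted p = 0.0534), with the Gapdh ratio as a covariate (0.0504) and with only the compared groups (0.106).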

How the results depend on the processing

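The 4 called Aqp4 differences kept sign and call under every alternative run. Of the 18 called member differences none changed sign, and 19 of 126 alternative values lost the call. Of the 90 uncalled ones, 49 of 630 alternative values changed sign, none of them past the threshold, and 6 others became called. The causes were not tested. No paired analysis was possible because the sample numbers are not shared between groups.

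Counts of called member probe sets that moved to or from 0 or by over 1.5 times are these. With the 10th percentile as a covariate they were 0 for the hippocampal side difference, 0 for the hippocampal minus cortical side difference and 5 for contralateral region. With the Gapdh ratio they were 0 for the hippocampal minus cortical side difference and 2 for contralateral time; quantile normalization gave 0 for the hippocampal side and 3 for contralateral time; array weights gave 2 for the hippocampal side; no filter and the compared groups alone each gave 0 for the hippocampal minus cortical side difference. With single arrays left out, the hippocampal side count ran from 0 to 2 and the hippocampal minus cortical one from 0 to 1. Smaller moves were 4 to 3 for ipsilateral time (10th percentile, no filter, compared groups), 4 to 3 for ipsilateral region (10th percentile, Gapdh ratio, quantile), 3 to 2 for contralateral region (Gapdh ratio), 5 to 4 for contralateral time (compared groups), and 1 more for time on either side (array weights) and ipsilateral time (quantile).

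Counts over all probe sets that moved by over 1.5 times were, for the hippocampal side (1207), 5 with the 10th percentile and 1881 with array weights. For hippocampal minus cortical side (314) they were 1 with the 10th percentile and 64 with the compared groups; for time (1450 ipsilaterally, 1612 contralaterally), 737 and 601 with the Gapdh ratio. For side in cortex at 24 h (8) they were 38 with array weights, 13 with the 10th percentile and 0 with no filter or the compared groups, and at 4 h (0) 1 with quantile normalization, 3 with log2(signal + 64) and 2 with the 10th percentile.

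Sign changes under quantile normalization were, for Glul M91652complete_seq_g_at, 0.0064 (side, cortex 4 h), -0.0092 (side, hippocampus), 0.12 (time, contralateral), 0.098 and 0.11 (region, ipsilateral and contralateral) and -0.016 (hippocampal minus cortical side). For contralateral region they were 0.018 in M91652complete_seq_at, 0.0094 in rc_AA852004_s_at and 0.080 in rc_AI232783_s_at, and for contralateral time 0.0097 in rc_AA852004_s_at. Slc1a2 gave -0.041 (U15098_at, ipsilateral time), -0.089 (rc_AI044517_g_at, contralateral time) and -0.078 (rc_AI638980_at, ipsilateral region). Slc1a3 gave -0.018, 0.013, 0.0013 and -0.011 (S59158_at: side in cortex at 24 h, ipsilateral and contralateral region, change of side with time), -0.028 (S75687_s_at, hippocampal side) and 0.075 and -0.084 (X63744_at, hippocampal side and contralateral region). Correlations turned to -0.028 for U15098_at and rc_AI638980_at, 0.097 for rc_AI232783_s_at and M91652complete_seq_at, and 0.076 for Aqp4 and Glul.

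With the Gapdh ratio, M91652complete_seq_g_at gave 0.0011 (side, cortex 4 h), -0.0092 (side, hippocampus), 0.092 (time, contralateral), 0.0034 and 0.014 (region) and -0.010 (hippocampal minus cortical side), M91652complete_seq_at 0.0073 (contralateral region), rc_AI044517_g_at -0.076 (contralateral time), S59158_at -0.0031 (side, cortex 24 h) and -0.0011 (its change with time), and X63744_at -0.011 (hippocampal minus cortical side). With the 10th percentile, the hippocampal minus cortical side difference was 0.17 in rc_AI232783_s_at, 0.0026 in U15098_at, 0.076 in rc_AI044517_g_at, -0.053 in X63744_at and -0.20 in X63744_g_at. The hippocampal side was 0.12 in rc_AI232783_s_at and -0.098 in X63744_g_at, which gave -0.083 for side in cortex at 24 h; rc_AI044517_g_at gave 0.16 for ipsilateral region and rc_AI638980_at 0.075 for ipsilateral time. Array weights gave 0.00039 (M91652complete_seq_g_at, side, cortex 4 h), 0.0094 (U15098_at, change with time), -0.037 (rc_AI638980_at, ipsilateral region), -0.037 and -0.030 (S59158_at, side in cortex at 24 h and its change with time), 0.0076 (S75687_s_at) and -0.012 (X63744_g_at) for side in cortex at 24 h, and 0.061 (X63744_at, hippocampal side).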
